A study of Mus musculus with 9 samples.

Results

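The miR-379/miR-410 cluster is a run of microRNA (miRNA) genes in the imprinted Dlk1-Dio3 domain of mouse chromosome 12. Its probes were chosen by name alone, as the mouse probes of the panel that carry any of 33 miRNA names between miR-379 and miR-410, a rule that uses no measured value. That gave 38 of the 566 mouse miRNA probes, 5 of the miRNAs being read on both arms. The samples, each titled as lung, were taken as whole lungs of C57BL/6 embryos at stage E18.5. There were 4 lungs homozygous for a mutated Bim 3′ untranslated region (3′UTR; Bim3'UTRmut/mut), called mutants 6 to 9, and 5 wild type lungs, called wild types 1 to 5. The product of Bim (Bcl2l11) promotes apoptosis, and litter and sex are not in the labels. Levels were read on a NanoString nCounter panel, which counts reporter-labelled probes on captured RNA without amplification, from 100 ng of total RNA per lung.

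In the Dlk1-Dio3 domain the maternal and paternal chromosomes give different RNAs. The maternal copy gives long noncoding RNAs and the miRNAs processed from them, the miR-379/miR-410 cluster among them, while the paternal copy gives the protein-coding genes Dlk1, Rtl1 and Dio3. The miRNAs of the cluster are known as abundant in embryo, placenta and brain. Mice that lack the cluster have trouble adapting their metabolism at birth, and in rat hippocampal neurons the transcription factor Mef2 drives the cluster during dendrite growth. In lung, miRNAs of the human counterpart, miR-154 among them, are raised in pulmonary fibrosis.

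All 33 miRNAs have hairpins on the plus strand in the RefSeq annotation of GRCm38.p6. They lie within chr12:109709060-109743795, from the start of the miR-379 hairpin to the end of that of miR-410, a span of 34.7 kb. The last 8 of them lie inside Mirg, a long noncoding RNA gene at chr12:109734981-109749458. Mature sequences from RefSeq (GRCm38.p6, chromosome 12, plus strand) could be matched to 18 of the 20 miRNAs detected here, and their 18 seeds were all different, so these miRNAs form no shared-seed family. The sequences given here, 5′ to 3′ with the seed (bases 2 to 8) in capitals, are the 3 closest pairs, whose probes target nearly the same RNA, and 5 miRNAs whose values by sample, genotype or lane are described in detail.
miR-300: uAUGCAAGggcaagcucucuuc
miR-381: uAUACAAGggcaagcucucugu
miR-376b: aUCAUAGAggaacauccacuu
miR-376a: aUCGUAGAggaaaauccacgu
miR-543: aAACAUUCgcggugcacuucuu
miR-495: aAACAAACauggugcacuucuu
miR-382: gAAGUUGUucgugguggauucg
miR-134: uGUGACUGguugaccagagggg
miR-329: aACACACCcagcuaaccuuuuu
miR-539: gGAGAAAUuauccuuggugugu
miR-410: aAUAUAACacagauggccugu

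Counting positions from 1 at the 5′ end and writing the first-named miRNA's base first, miR-300 and miR-381 differ by G4A, U21G and C22U and are identical at 19 of 22 positions. miR-376b and miR-376a differ by A4G, C13A and U20G and are identical at 18 of 21 positions. In both pairs a single seed base differs, the fourth of the miRNA. miR-543 and miR-495 differ by U6A, U7A, G9A and C10U and are identical over their last 12 bases. How far each probe also reads its near relative was not tested.

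A lane's background was set at the mean plus 2 SD of its 8 negative control probes, and a probe was kept if it lay above that level in at least 4 samples. This kept 20 of the 38 cluster probes (52.6%), each for a different miRNA, against 189 of the 566 mouse probes (33.4%). Of the 20, 14 lay above background in all 9 samples. The other 6, miR-411, miR-323-3p, miR-667, miR-376a, miR-487b and miR-377, passed in 4 to 7 samples. Among the 18 probes that were not kept, miR-379, miR-323-5p, miR-409-5p and miR-369-5p were each above background in 2 samples and the remaining 14 in none. The miR-379 probe, at the start of the cluster, gave 80, 70, 59 and 68 counts in the mutants, against 83, 53, 34, 50 and 70 counts in the wild types. The 3p arm of miR-323 and of miR-369 was kept where the 5p arm was not.

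Totals over mouse miRNA probes were 206964 to 289227 counts per sample. Mutant 8 and wild type 3 carried heart and skeletal muscle miRNAs, with a sum of 30047 counts over the 7 listed probes in mutant 8, 22869 in wild type 3, and 378 to 636 in the other 7 samples. Of the 7, the cardiac miR-499, miR-208b and miR-208a, with miR-1 and miR-133a, were at 1202 counts or more in both. miR-133b and miR-206 were at 110 and 187 counts in mutant 8 and at 75 and 71 in wild type 3. The 5 epithelial probes of the miR-200 family, all still above 0, summed to 1033 counts in mutant 8 and 548 in wild type 3, against 6490 to 8695 elsewhere, so the defining epithelial markers of lung were low in both. Whether these 2 samples are lung, heart or a mix of both was not tested, although both are titled as lung. The 4 neural probes (miR-124, miR-9, miR-128 and miR-219) were not kept, being above background in 2, 1, 1 and 0 samples. In mutant 8, miR-128, miR-124 and miR-9 read 129, 77 and 66 counts, above the lane limit of 65.1. In wild type 3, miR-124 read 69 counts against a limit of 68.6. The cardiac miR-499, miR-208b and miR-208a, along with miR-133b, were likewise not kept, each being above background in 2 or 3 samples. The lanes of mutant 6, wild type 2 and wild type 5 had higher negative controls, with means of 66.8, 64.3 and 79.1 counts against 28.1 to 39.5 in the others. Last, the sample labels call sample 5 wild type, whereas the comment in the table of lanes calls it mutant. The labels were followed.

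Kept probes ran from miR-411 near the first end to miR-410 at the last, and the 10 from miR-543 to miR-539 were kept without a gap. Levels are given as CPM, counts scaled to a common total over the kept miRNA probes with trimmed-mean (TMM) factors. Different probes were not compared as numbers of molecules, since capture differs between probes. Near the miR-379 end, miR-329 read 2541, 3031, 2140 and 2729 CPM in the mutants, against 3750, 3079, 2598, 3269 and 2795 CPM in the wild types. The genotypes overlapped, and mutant 8 and wild type 3 were each the lowest of their genotype. miR-329 is needed for dendrite growth in rat hippocampal neurons, together with miR-134 and miR-381. Its neighbours on either side, miR-758 and miR-494, were not above background in any sample.

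In the middle of the cluster stand the 3 miR-376 miRNAs, a family whose seeds are edited by ADAR enzymes in mouse brain. On the log2 CPM scale miR-376c read 10.67, 11.38, 10.41 and 11.46 in the mutants, against 11.45, 11.24, 10.24, 11.40 and 10.89 in the wild types. miR-376b read 812, 1680, 1117 and 1436 CPM in the mutants, against 1830, 1168, 664, 1320 and 1098 CPM in the wild types. For both, wild type 3 was the lowest of all 9 samples and the genotypes overlapped. miR-376a ranged over 318 to 511 CPM in the mutants and 305 to 582 CPM in the wild types, and it was above lane background in 5 of the 9 samples.

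Further on, miR-382 read 3075, 4089, 1903 and 4013 CPM in the mutants, against 3773, 3904, 2203, 4414 and 3550 CPM in the wild types. Mutant 8 and wild type 3 stood well below the other 7 samples, none of which was under 3075 CPM. Its neighbour miR-134, which limits dendritic spine size in rat hippocampal neurons, read 635, 911, 385 and 874 CPM in the mutants, against 624, 746, 557, 853 and 769 CPM in the wild types. Mutant 8 and wild type 3 were again the lowest of all 9.

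At the far end, miR-369-3p, which acts through an AU-rich element of TNF mRNA in human cells, read 1369, 2009, 1738 and 2671 CPM in the mutants, against 2289, 1930, 1401, 2090 and 1924 CPM in the wild types. Wild type 3 was the lowest wild type, while mutant 6 and not mutant 8 was the lowest mutant. miR-410, which with miR-495 promotes proliferation of neonatal rat cardiomyocytes, read 1114, 1335, 1176 and 1289 CPM in the mutants, against 1376, 1102, 838, 1413 and 1119 CPM in the wild types. Here wild type 3 was below every other sample, while mutant 8 lay within the range of the other mutants.

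**Figure D1:**
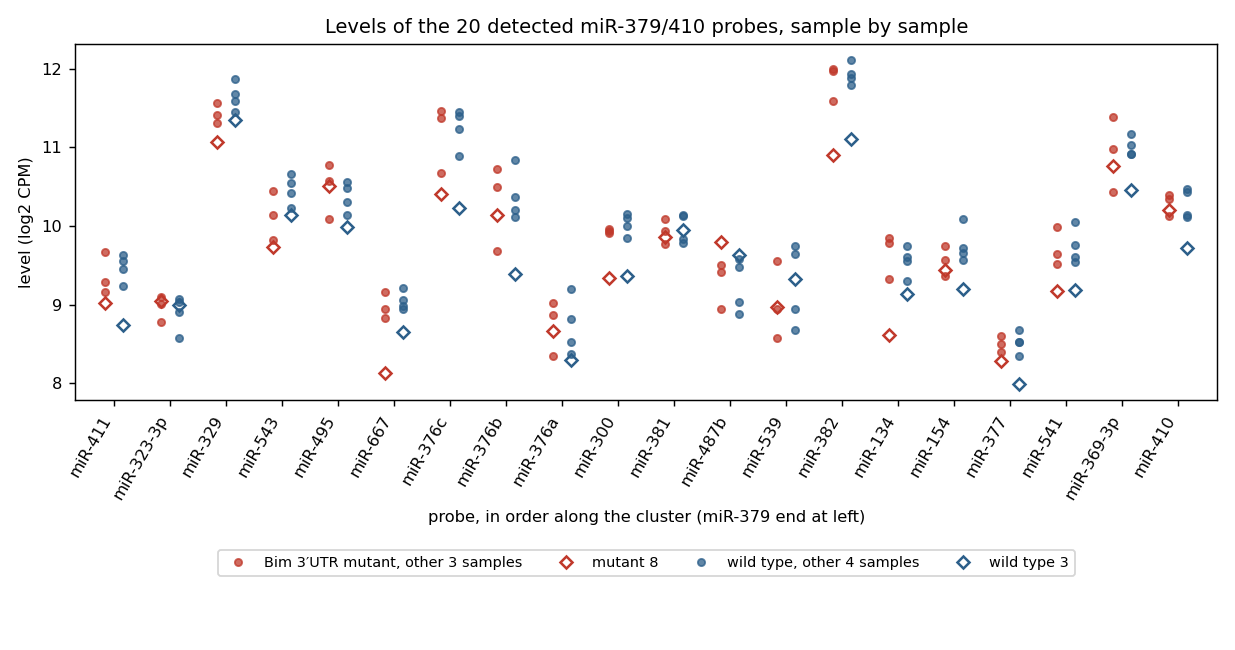
Level of each of the 20 kept probes in every sample, in log2 CPM, in order along the cluster. Mutants are red and left of the wild types in blue, and open diamonds mark mutant 8 and wild type 3. The diamonds lie at the foot of their columns for miR-382, miR-376c, miR-300 and miR-134, but not for miR-323-3p, miR-381, miR-539 or miR-487b.

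The first question was how the cluster read in the 2 samples with heart miRNAs, each set only against its own genotype. For this, levels were taken as log2 CPM with a prior count of 2, and each sample was compared with the median of its genotype, itself included. Mutant 8 was the lowest mutant at 10 of the 20 probes, against 30.7% of all 189 kept probes. Wild type 3 was the lowest wild type at 16 of the 20, against 33.9% of all kept probes. Both held at 10 of the 20, against 22.8% of all kept probes. The median difference over the cluster was -0.17 in mutant 8 and -0.42 in wild type 3 on the log2 scale, while the median over all kept probes was close to 0 in both samples.

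Wild type 3 lay below all 8 other samples at 8 of the 20 probes, a count that was not made over all kept probes. The drop was not even along the cluster. miR-376c read 0.651 times the mutant median in mutant 8 and 0.499 times the wild type median in wild type 3. miR-382 read 0.543 times in mutant 8 and 0.585 times in wild type 3. For miR-134 the ratio was 0.522 in mutant 8 and 0.749 in wild type 3, so mutant 8 was the lower of the pair there. miR-667 was below lane background in both, with 64 counts against a limit of 65.1 in mutant 8 and 66 against 68.6 in wild type 3, so no ratio is given for it.

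miR-376b, miR-411 and miR-410 showed the opposite order. miR-376b read 0.883 times the mutant median in mutant 8 and 0.572 times the wild type median in wild type 3. The ratios of miR-411 were 0.870 in mutant 8 and 0.610 in wild type 3, where its 70 counts lay just above the lane limit of 68.6. With background subtracted, its log2 difference in wild type 3 was -1.32 in place of -0.71. Those of miR-410 were 0.956 in mutant 8 and 0.750 in wild type 3. Over the 20 probes, wild type 3 deviated further down than mutant 8 at 15, a count likewise not made over all kept probes.

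miR-323-3p, miR-381, miR-539 and miR-487b did not join the drop in either sample. miR-323-3p read 1.01 times its genotype's median in mutant 8 and 1.00 times in wild type 3, which was itself the median wild type. miR-381 read 0.974 times in mutant 8 and 1.00 times in wild type 3. Among lower-background lanes it read 922 CPM in mutant 8, against 868 and 972 CPM in mutants 7 and 9. Wild type 3 read 982 CPM, against 902 and 872 CPM in wild types 1 and 4. miR-539, which lowers prohibitin 2 in mouse cardiomyocytes, read 1.01 times in mutant 8 and 1.00 times in wild type 3. Its medians are taken over lanes of higher and lower background, with which its levels moved, as described below. It read 634.4 CPM in wild type 3, against 485.6 and 399.5 CPM in the other lower-background wild types, 1 and 4. In mutant 8 it read 494.9 CPM, against 372.5 and 486.0 CPM in mutants 7 and 9. miR-487b, whose inhibition increased vessel growth in mouse limbs along with that of miR-329, miR-494 and miR-495, read 1.26 times in mutant 8, the highest mutant, and 1.11 times in wild type 3, the highest wild type. Its levels were 482.4, 717.2, 879.7 and 673.3 CPM in the mutants, against 755.3, 465.0, 784.1, 706.4 and 513.7 CPM in the wild types.

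miR-300 and miR-381, near relatives in sequence, read differently in these samples. miR-300 was low in both, with 953, 987, 639 and 976 CPM in the mutants, against 1013, 1133, 652, 911 and 1088 CPM in the wild types. miR-381 read 1079, 868, 922 and 972 CPM in the mutants, against 902, 1114, 982, 872 and 1116 CPM in the wild types. Scaled to their genotype's median, mutant 8 and wild type 3 stood at 0.665 and 0.647 for miR-300 and at 0.974 and 1.00 for miR-381. For miR-376b and miR-376a no such comparison is made in wild type 3, where miR-376a was below lane background, at 51 counts.

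**Figure D2:**
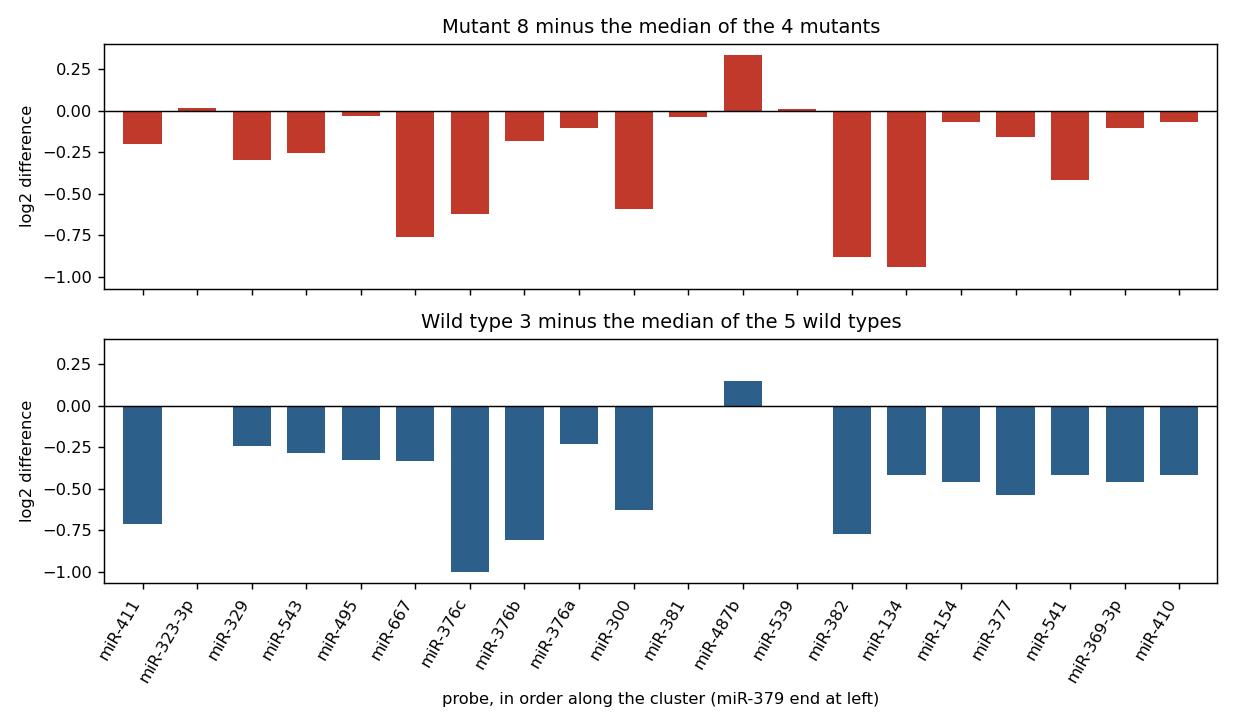
Log2 difference of mutant 8 from the median of the 4 mutants (upper panel, red) and of wild type 3 from the median of the 5 wild types (lower panel, blue), for the 20 kept probes in order along the cluster. Bars start at 0. Both panels dip at miR-376c, miR-300 and miR-382, and miR-487b alone is above 0 by more than 0.1 in both.

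The 5 kept miRNAs inside Mirg (miR-154, miR-377, miR-541, miR-369-3p and miR-410) had median differences of -0.10 in mutant 8 and -0.46 in wild type 3, and the 15 upstream of it -0.20 in mutant 8 and -0.32 in wild type 3. miR-377 is known to raise fibronectin in mouse and human mesangial cells of the kidney. With the lane mean of the negative controls subtracted first, mutant 8 was lowest at 7 of the 20 probes and wild type 3 at 15, with median differences of -0.12 in mutant 8 and -0.49 in wild type 3. The share of all kept probes after that subtraction was not computed. Before it, the share was 30.7% in mutant 8 and 33.9% in wild type 3. The mutant 8 count after subtraction is therefore not shown to exceed the panel. In bulk tissue, fewer cells that carry the cluster and less of its RNA per cell cannot be told apart. In raw counts, not scaled to each sample's total, the sums of mesenchymal and endothelial markers were also low in these samples. The 5 probes of mesenchyme and smooth muscle summed to 14177 counts in mutant 8 and 11912 in wild type 3, against 16958 to 23767 elsewhere. Within that list miR-199a-3p was at 3375 and 3887 counts, against 7195 to 11417, while miR-143 and miR-145 were within or above the range of the other samples. The 2 endothelial probes summed to 18039 counts in mutant 8 and 19638 in wild type 3, against 26174 to 35493. On the log2 CPM scale, miR-126-3p differed from its genotype's median by -0.65 in mutant 8 and -0.10 in wild type 3. For miR-126-5p these differences were -0.15 and -0.04, and for miR-199a-3p -1.22 and -0.73. Endothelial markers were thus near the genotype's median in wild type 3 once scaled. Of the 4 blood markers, miR-142-3p was at 1082 counts in mutant 8, against 98 to 251 in all other samples. miR-223 went the other way, at 186 counts in mutant 8 and 187 in wild type 3, against 327 to 597 elsewhere. miR-144 was highest in mutant 8 by a small margin, and miR-451 lay within the range of the other samples in both. The 4 summed to 2964 counts in mutant 8 and 1614 in wild type 3, against 1660 to 3540 elsewhere. The part of any of these cell type markers in the low cluster values was not tested.

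As a share of kept counts the 20 probes held 2.23%, 2.45%, 1.91% and 2.62% in mutants 6 to 9, against 2.61%, 2.43%, 1.59%, 2.55% and 2.50% in wild types 1 to 5. Mutant 8 was the lowest mutant and wild type 3 the lowest of all. The kept total includes heart miRNAs, which lower the share. miR-1 and miR-133a gave 14021 and 5201 of 226525 kept counts in mutant 8, and 9153 and 6016 of 186009 in wild type 3. Elsewhere they gave 66 to 147 and 77 to 162 counts. How much of the lower share this makes up was not tested. The mean share was 2.30% ± 0.307 in the mutants (SD, n = 4) and 2.34% ± 0.424 in the wild types (SD, n = 5), a gap smaller than either spread. Without mutant 8 and wild type 3 it was 2.43% ± 0.195 in the mutants (n = 3) and 2.52% ± 0.0769 in the wild types (n = 4). Among the lanes of lower background the share was 2.33% ± 0.372 in the mutants (n = 3) and 2.25% ± 0.575 in the wild types (n = 3). Among those of higher background it was 2.23% in mutant 6 and 2.47% on average in the 2 wild types.

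The second question was whether cluster miRNAs differ with the Bim 3′UTR genotype. None did by edgeR's quasi-likelihood test with Benjamini-Hochberg adjustment over the 189 kept probes: 0 of the 20 passed an adjusted p of 0.05, and the share over all kept probes was 0.0%. At an unadjusted p under 0.05 there were 0 cluster probes and 5 of all 189. DESeq2 likewise called 0 of the 20, with 0 of them and 9 of all 189 under 0.05 before adjustment. The smallest unadjusted edgeR p of the cluster was 0.098, that of miR-543, and its smallest adjusted p was 0.997. For 16 of the 20 the log2 fold change was smaller than its standard error, and for 0 of them did it exceed 2 standard errors.

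Read as mutant over wild type, 12 of the 20 log2 fold changes were below 0, against 59.8% of all kept probes, a share close to that of the panel. The median was -0.05, against -0.03 over all kept probes, with values from -0.35 to 0.20. The direction counts depended on scaling: 5 of 20 were lower when the samples were scaled on housekeeping mRNAs, which put the median of all kept probes at 0.11 in place of -0.03 and their share below 0 at 28.6%. Among single samples, leaving out mutant 8 gave 6 lower and leaving out wild type 3 gave 17 lower. The genotypes overlapped at each of the 20 probes, while 0.529% of all kept probes did not overlap.

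Without mutant 8 and wild type 3, 15 of the 20 were lower in the mutants, against 53.4% of all kept probes, with a median of -0.05 and again 0 calls. Of the 20, 11 were lower and 4 higher in both fits, and 5 changed sign, none of them beyond 0.11 in either fit. With sample 5 taken as mutant, as the table of lanes has it, 11 of 20 were lower and 0 were called.

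**Figure D3:**
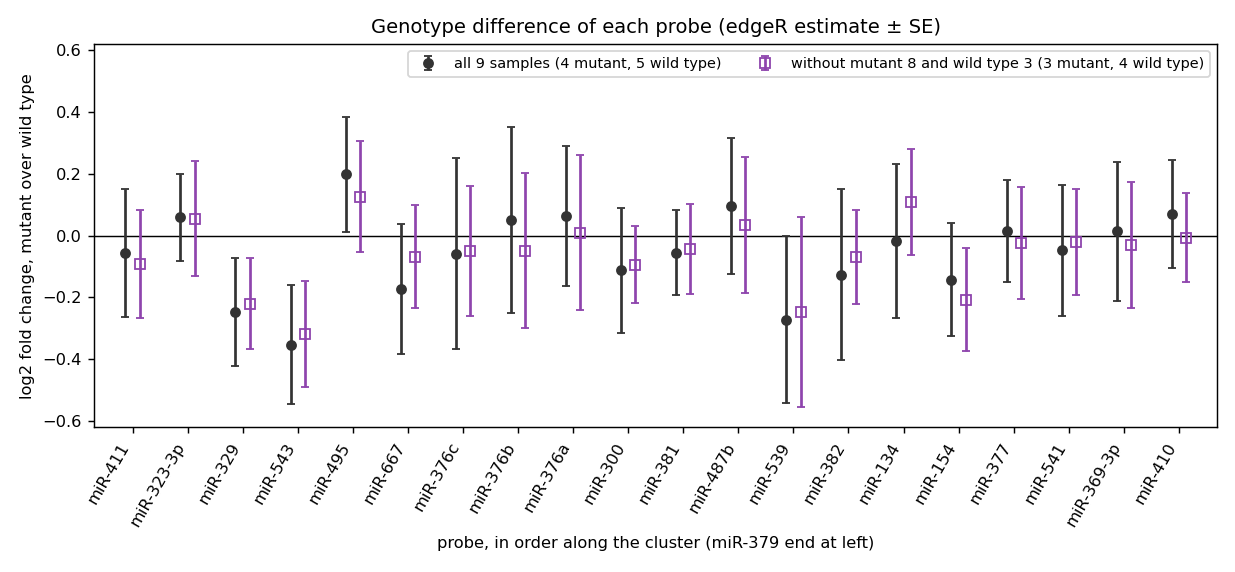
Log2 fold change, mutant over wild type, of the 20 kept probes in order along the cluster, with standard errors, from edgeR on all 9 samples (black circles) and without mutant 8 and wild type 3 (purple squares). Most bars cross 0, and the values run from -0.35 for miR-543 to 0.20 for miR-495 in the fit of all samples.

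miR-543, which with miR-369-3p and miR-496 lowers N-cadherin in mouse neural progenitors, had the lowest fold change. It read 894, 1125, 842 and 1391 CPM in the mutants, against 1364, 1493, 1119, 1617 and 1194 CPM in the wild types. Mutants 6 and 8 lay below every wild type, but mutant 9 lay above wild types 1, 3 and 5. The log2 fold change was -0.35 ± 0.19 (SE, 4 against 5), or 0.783-fold, and -0.32 ± 0.17 without mutant 8 and wild type 3. It was below 0 in each alternative that was run, and it did not pass adjustment in any.

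The other 3 probes whose fold change exceeded its standard error were miR-329, miR-539 and miR-495. miR-329 stood at -0.25 ± 0.18, and at -0.22 ± 0.15 without mutant 8 and wild type 3. miR-495 was on the other side of 0, at 0.20 ± 0.19, with 1079, 1510, 1451 and 1752 CPM in the mutants, against 1418, 1118, 1006, 1505 and 1261 CPM in the wild types. It shares its last 12 bases with miR-543, and the pair sits next to each other on the chromosome with fold changes of opposite sign.

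miR-539 stood at -0.27 ± 0.27 and its levels went with the lanes. They were 745.2, 372.5, 494.9 and 486.0 CPM in the mutants, against 485.6, 793.2, 634.4, 399.5 and 850.2 CPM in the wild types. The 3 highest values were those of mutant 6, wild type 5 and wild type 2, the lanes of higher negative controls. Of the alternatives, taking sample 5 as mutant turned its sign, at 0.03, and using the second lanes of samples 1, 5 and 6 gave -0.52. With lane background as a covariate it was -0.20.

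The standard errors of miR-382, miR-134 and miR-376c rest in part on mutant 8 and wild type 3. miR-382 had a log2 fold change of -0.13 ± 0.28 over all samples, and -0.07 ± 0.15 without mutant 8 and wild type 3. The estimate for miR-134 was -0.02 ± 0.25, and 0.11 ± 0.17 without them. miR-376c stayed at -0.06 ± 0.31 over all samples and -0.05 ± 0.21 without them. The remaining 13 probes had fold changes between -0.17 for miR-667 and 0.10 for miR-487b.

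Samples 1, 5 and 6 had been run in 2 lanes each, one of higher and one of lower background, which shows how far a probe moves with the lane when the RNA is the same. For the cluster the median absolute difference was 0.22 on the log2 scale after scaling to the kept total, against 0.20 for all kept probes. miR-539 differed by 1.10 in mutant 6, 0.77 in wild type 1 and 0.85 in wild type 5, higher in the lane of higher background each time. Its mean log2 difference was 0.91, the largest of the 20, and those of miR-541, miR-323-3p and miR-381 were 0.56, 0.53 and 0.46.

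In all 3 RNAs, 9 of the 20 cluster probes gave the larger value in the lane with more background, against 77 of all 189 kept probes. The miR-376 probes went the other way in each, with means of -0.41 for miR-376a, -0.32 for miR-376b and -0.03 for miR-376c. Of the 9, miR-323-3p, miR-381 and miR-539 did not drop in mutant 8 and wild type 3. miR-134, miR-300, miR-382 and miR-541 read low in both, and the others of the 9 were miR-667 and miR-369-3p. Mutant 8 and wild type 3 themselves were in lanes of lower background, with negative control means of 34.6 and 37.5 counts. Whether lane background bears on which probes read low in them was not tested.

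**Figure D4:**
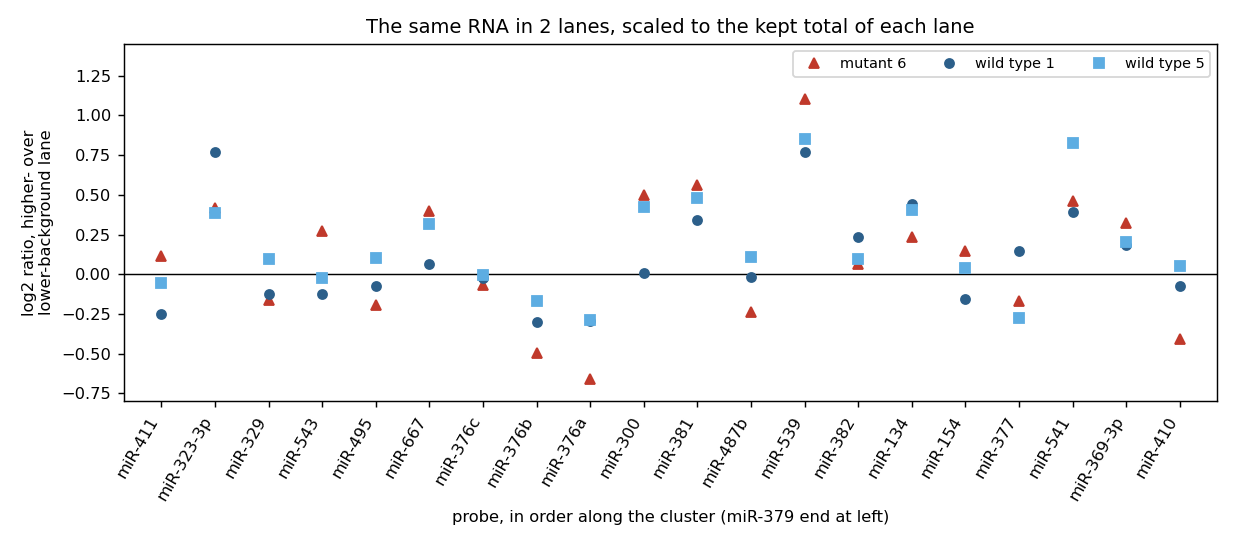
Log2 ratio of the higher-background lane over the lower-background lane for the same RNA, scaled to each lane's kept total, for the 20 kept probes in order along the cluster. Points are mutant 6 (red triangles), wild type 1 (dark circles) and wild type 5 (light squares). miR-539 is high in all 3, and miR-376b and miR-376a are low in all 3.

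The other miRNAs of the Dlk1-Dio3 domain on the panel gave a comparison outside the cluster. Of 27 such probes, 8 were kept, with 2 higher and 6 lower in the mutants and a median log2 fold change of -0.19. None was called. miR-433 had both the largest counts and the smallest p of the 8, at -0.26 ± 0.18. Mutant 8 was the lowest mutant at 3 of these 8 and wild type 3 the lowest wild type at 6, against 10 and 16 of the 20 in the cluster. Whether the cluster and the rest of the domain differ was not tested.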

How the data were processed

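The deposited values were raw NanoString counts per probe, with no background step or normalization given in the sources used here. Per the labels' protocols, total RNA came from lung powder and 100 ng entered each assay. A deposited table of 12 lanes held the same counts (5634 of 5634 values equal to the first lane of each sample) plus second lanes of samples 1, 5 and 6. Replicates are lungs of separate labels with no litter given, and p-values therefore reflect only how these samples vary, which may be technical.

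From these counts, probes were kept by the rule on negative controls (2 SD, at least 4 samples), and edgeR 4.0.16 (quasi-likelihood, TMM, R 4.3.3) was fitted on all 9 samples without covariates, with Benjamini-Hochberg adjustment over 189 probes. The standard error is the absolute log2 fold change divided by the square root of F. The fit was tested on simulated data. DESeq2 1.42.0, other scalings, filters, background subtraction and leaving out each sample were the alternatives set at the start. Alternatives without samples 3 and 8 together, with sample 5 as mutant, with second lanes and with lane background as a covariate were chosen after seeing the data. The rule for members uses names alone, but this cluster and the lists were chosen for study with earlier results of these data known. Every kept member is named, those not kept if above background in any sample, and from the other Dlk1-Dio3 miRNAs the most abundant and the smallest p. The arm of probes named without one was assigned by hand from the probe's miRBase identifier, and miRNAs were matched to RefSeq (GRCm38.p6) by name. No p is given for the cluster as a whole.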

Additional observations from a re-analysis of the deposited data

Results flagged for a closer look

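In 44 groups of values tested for a single sample far from the others (the gap to the nearest sample over the group's whole range), 3 were marked, and chance flags about 1 in 20 groups. miR-300 in mutant 8, at 9.34 log2 CPM, lay far below the other 3 mutants. Wild type 3 lay far below the other wild types in the share of kept counts held by the 20 cluster probes, at 1.59%, and in their mean level, at 9.54 log2 CPM. The last 2 values rest on the same probes, and the kept total behind the share includes heart miRNAs. Both samples are those that carry heart miRNAs.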

How the results depend on the processing

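No cluster probe was called under any alternative that was run. Scaling on housekeeping mRNAs gave 5 of 20 probes lower in the mutants, against 12, where 28.6% of all kept probes were lower, against 59.8%. The whole panel moved with the scaling. Leaving out single samples gave 6 to 17 lower, the lowest without mutant 8 and the highest without wild type 3, with a median log2 fold change of -0.13 to 0.05, a share difference (mutant minus wild type) of -0.22 to 0.099 percentage points, and 0 calls throughout. Between 0 and 10 of the 20 fold changes turned sign under an alternative, the most with sample 5 as mutant and without mutant 8 and wild type 3. Of unadjusted p-values, 3 fell under 0.05: miR-543 at 0.022 without mutant 9 and at 0.041 with sample 5 as mutant and without mutant 8 and wild type 3, and miR-539 at 0.035 with the second lanes. With total count scaling 9 of 20 were lower (42.3% of all kept probes), with positive control scaling 8 (33.9%), with DESeq2 11 (49.7%) and with lane background as a covariate 14 (59.3%). Under the other scalings and filters mutant 8 was the lowest mutant at 7 to 12 probes and wild type 3 the lowest wild type at 12 to 20. These ranges include the filter in all 9 samples, which left 14 cluster probes in place of 20. The counts in them therefore do not share a denominator. No share over all kept probes was computed beside these counts. A stricter background of 3 SD kept 19 cluster probes. No paired analysis was possible because the labels give no litter or other link between mutants and wild types. Background limits miR-667, miR-376a and miR-377, which lay under it in wild type 3. The difference of miR-377 there was -0.54 on the log2 scale, and -2.06 with background subtracted. Background also limits miR-323-3p and miR-487b, which lay under it in mutant 6, wild type 2 and wild type 5.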
